A study of Mus musculus with 6 samples.

Results

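The genes described here are 10 genes of interferon reception and nucleic acid sensing, taken by symbol from the gene counts of BV2, a line of immortalized microglia from mouse. They are Ifnb1, the receptor chain genes Ifnar1, Ifnar2, Ifngr1 and Ifngr2, the cGAS-STING genes Mb21d1 (now Cgas) and Tmem173 (now Sting1), and Mavs, Tbk1 and Irf3. All 10 were found among the 46095 gene symbols of the table, and 9 of them passed the filter on low counts that left 14120 genes. BV2 cells were seeded in six-well plates and either left untreated (CON group, 3 libraries) or incubated for 6 h with recombinant sTREM-1, the soluble form of the myeloid receptor TREM-1, at 1 μg/mL (sTREM-1 group, 3 libraries). No vehicle is named for the CON group, the recombinant protein is the only agent by which the groups differ in the labels, and all libraries come from 1 cell line.

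Interferon beta, the product of Ifnb1, signals through a type I receptor made of the chains IFNAR1 and IFNAR2, while interferon gamma uses the type II receptor made of IFNGR1 and IFNGR2. Production of type I interferon follows the sensing of nucleic acids in the cytosol. The enzyme cGAS binds DNA and makes the messenger cGAMP, which activates STING, whereas RNA helicases such as RIG-I (Ddx58) and MDA5 (Ifih1) act through MAVS on the outer mitochondrial membrane. Both arms reach the kinase TBK1, which phosphorylates the transcription factor IRF3, and microglia are among the brain cells in which this pathway is known to act.

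The promoter windows of RefSeq on GRCm38.p6, which reach from 250 bases before to 50 bases after each start, were matched by symbol for 9 of the 10 genes, all but Tmem173. Stretches are shown 5′ to 3′ for both type I receptor chains, which gave different calls below, for the neighbouring receptor chain gene Ifngr2, for Mavs, which had the largest fold change of the 9 tested genes, and for Ifnb1, whose RNA was close to absent. Each stretch runs from position -250 to position 10, counted from 1 at the first base of the gene. Capitals mark the letters TTCNNNGAA, the interferon gamma activated sequence known as GAS, in the stretches of Ifnar2 and Ifnar1, the NF-kB pattern (GGGA, any 2 bases, TTCC) in those of Ifngr2 and Ifnb1, and the GC box GGGCGG in that of Mavs, on either strand.
Ifnar2, chr16:91372533-91372792, plus strand: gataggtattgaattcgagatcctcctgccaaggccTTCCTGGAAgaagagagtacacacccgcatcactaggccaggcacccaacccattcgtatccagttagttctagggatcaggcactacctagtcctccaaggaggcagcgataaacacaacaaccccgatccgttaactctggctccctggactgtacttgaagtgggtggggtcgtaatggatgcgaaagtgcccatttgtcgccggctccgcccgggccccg
Ifnar1, chr16:91484965-91485224, plus strand: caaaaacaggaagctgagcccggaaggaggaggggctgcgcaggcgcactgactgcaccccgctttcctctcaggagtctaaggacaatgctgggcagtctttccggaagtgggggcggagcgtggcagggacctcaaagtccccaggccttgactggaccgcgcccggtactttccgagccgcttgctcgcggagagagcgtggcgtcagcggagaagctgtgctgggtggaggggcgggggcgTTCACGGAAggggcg
Ifngr2, chr16:91546809-91547068, plus strand: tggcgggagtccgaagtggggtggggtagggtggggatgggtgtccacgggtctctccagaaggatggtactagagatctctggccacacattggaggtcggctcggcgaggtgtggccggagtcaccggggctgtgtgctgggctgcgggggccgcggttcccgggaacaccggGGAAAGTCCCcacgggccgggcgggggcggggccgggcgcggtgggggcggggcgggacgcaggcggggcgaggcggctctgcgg
Mavs, chr2:131233813-131234072, plus strand: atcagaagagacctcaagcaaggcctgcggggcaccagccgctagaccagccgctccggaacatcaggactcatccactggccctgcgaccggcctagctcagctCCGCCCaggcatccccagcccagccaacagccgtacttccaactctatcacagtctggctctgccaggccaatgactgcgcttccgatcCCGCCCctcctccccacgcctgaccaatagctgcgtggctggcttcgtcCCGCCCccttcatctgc
Ifnb1, chr4:88522785-88523044, minus strand: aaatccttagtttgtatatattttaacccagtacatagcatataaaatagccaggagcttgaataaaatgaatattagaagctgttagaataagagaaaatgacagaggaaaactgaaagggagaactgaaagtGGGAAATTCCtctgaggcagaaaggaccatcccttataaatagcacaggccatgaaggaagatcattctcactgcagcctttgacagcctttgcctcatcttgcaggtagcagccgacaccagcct

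Of 5 patterns searched on both strands, the core of the interferon-stimulated response element (GAAA, any 2 bases, GAAA) was found in 0 of the 9 windows, against 3.44% of all 32851 windows. At that share, 0 of 9 windows is not unusual. The pattern asks for exactly 2 bases between the GAAA letters. The Ifnb1 stretch holds gaaaactgaaa, with 3 bases between them, which the pattern does not count. The GAS letters stood in the windows of Ifnar1, from position -5 to 4, and Ifnar2, from -214 to -206, and in 8.30% of all windows. The NF-kB letters stood in those of Ifnb1, from -116 to -107, and Ifngr2, from -75 to -66, and in 1.47% of all windows. The GC box was in 7 of the 9 windows and in 35.66% of all, and the letters CCAAT were in 3 of the 9 and in 37.41% of all. In Ifngr2 1 pair of GC boxes overlapped, and no other matches overlapped each other. Among the genes of the 11 pathway lists below that had a window, 37 of 125 held the GAAA core, among them Ddx58, Ifih1 and Stat2. Several of the 37 were interferon alpha genes, which are near-identical copies, and others came from the list of interferon-stimulated genes. That share thus depends on how the lists were chosen. These are matches of letters in a fixed window and not sites of a factor.

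Compared with the CON group, 7 of the 9 tested genes were higher after sTREM-1 and 0 were lower. These were Ifnar2, Ifngr1, Ifngr2, Mb21d1, Mavs, Tbk1 and Irf3, at an adjusted p-value under 0.05 in the quasi-likelihood test of edgeR, adjusted by Benjamini-Hochberg over all tested genes. By that rule 30.5% of all tested genes changed, 16.5% upward and 14.1% downward. The genes described here were chosen with earlier results of these data known, so this comparison depends in part on that choice. The rises were small, between 1.08-fold for Tbk1 and 1.21-fold for Mavs, and the median log2 fold change of the 9 genes was 0.16, against -0.0017 over all tested genes. Among all tested genes, 5.55% passed the test with a rise at least as large as that of Mavs. Ifnar1 and Tmem173 did not pass, and Ifnb1 had too few counts to be tested. The libraries of the groups did not overlap, with sTREM-1 higher, for 8 of the 9 genes, against 21.3% of all tested genes (40.7% in either direction).

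**Figure D1:**
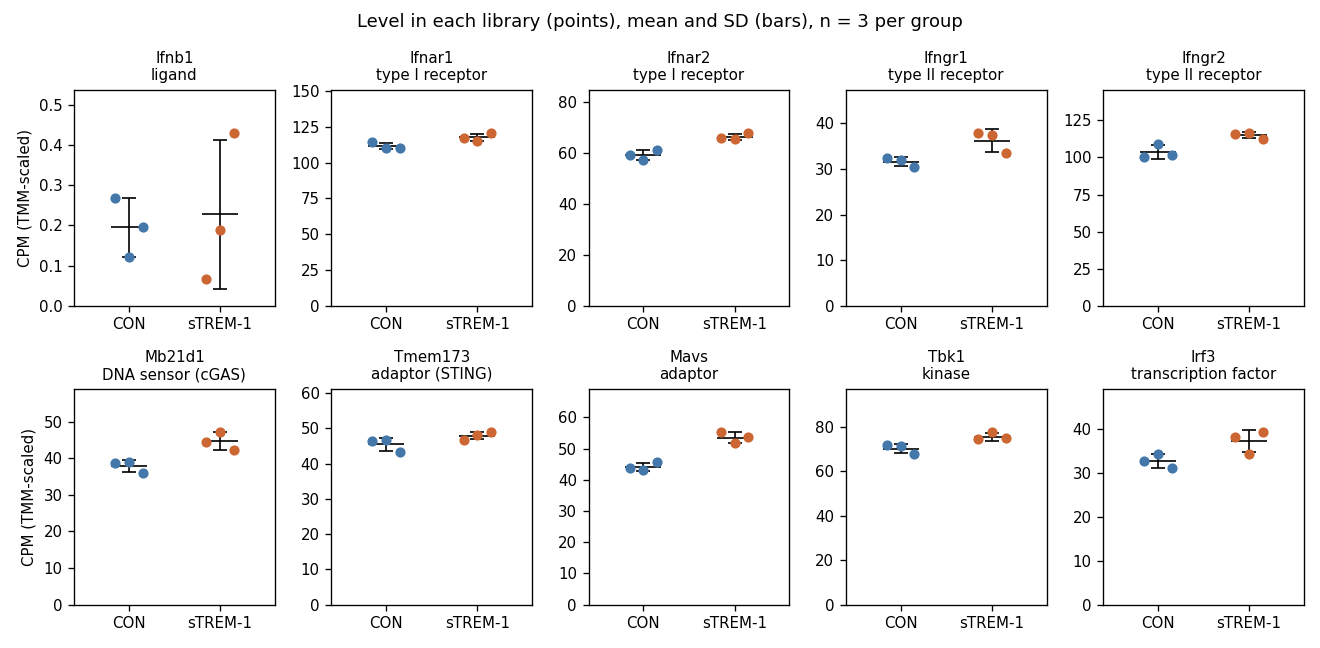
Level of each of the 10 genes in each library, in CPM (counts scaled to a common library size by TMM) on axes that start at 0, with the mean and SD of 3 libraries per group. For all genes but Ifnb1 and Irf3 the 3 sTREM-1 points lie above the 3 CON points, and the distance is small beside the level itself.

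The count table held 3 libraries per group, while the methods of the study give n = 4, and nothing in the labels says that the libraries came from separate cultures, so that the p-values measure the spread between these libraries. Total counts ran from 40663981 to 40779439 in the CON group and from 40070633 to 45877107 in the sTREM-1 group, and the biological coefficient of variation within groups was 3.99%. The chi-square per gene was 3.45 to 4.99 for libraries of 1 group, above sampling noise, and 20.3 to 22.3 for libraries of different groups, so all 6 were kept as replicates. Of 12 microglia and macrophage markers, Itgam, Cd68, Csf1r, Ptprc, Tyrobp, Spi1, Fcgr3 and Adgre1 each had over 100 CPM, Cx3cr1, P2ry12 and Tmem119 had group means under 2 CPM, and Aif1 was listed at 0 in all 6 libraries. In this list 5 of 11 tested markers were higher after sTREM-1 and 0 lower, and the summed level ran from 2823 to 2839 CPM in CON and from 3119 to 3178 CPM in sTREM-1 libraries, with the largest contribution to the difference from Csf1r. The summed markers of neurons, astrocytes, fibroblasts and T cells stayed under 2 CPM in every library, with Rbfox3, Aqp4, Col1a2 and Cd3e at 0, and those of oligodendrocytes between 25.0 and 29.1 CPM with Mog at 0. The endothelial list was at 176 to 193 CPM in CON and 224 to 229 CPM in sTREM-1 libraries, nearly all of it Flt1, with Cldn5 at 0. The list for plasmacytoid dendritic cells was at 263 to 274 and 322 to 326 CPM, nearly all of it Bst2 and Tcf4, with Siglech at 0. Bst2 also stands in the list of interferon-stimulated genes below. The part of these marker levels in the results below was not tested. In these bulk samples fewer cells of a type and less RNA per cell cannot be told apart.

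The ligand gene Ifnb1 was near the limit of detection. It had 11, 5 and 8 counts in CON replicates 1, 2 and 3, and 3, 8 and 17 counts in sTREM-1 replicates 1, 2 and 3. The lowest and the highest library were both in the sTREM-1 group, so the groups overlapped. Its level was 0.195 ± 0.0734 CPM (SD) for CON and 0.227 ± 0.185 CPM (SD) for sTREM-1 with n = 3 each, a ratio of means of 1.16 (two-sided exact permutation p = 0.9, where 3 libraries against 3 allow no p under 0.1). Without a filter on low counts the log2 fold change was 0.20 with a 95% interval from -1.13 to 1.53 (edgeR adjusted p = 0.90). No difference of Ifnb1 was found, and the interval holds changes of Ifnb1 in both directions. The part of depth in the width of this interval was not tested.

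The other interferon genes gave almost no reads. Of 20 further ligand genes in the table, which code for interferon gamma, the interferon alphas and other type I and type III interferons, 17 had 0 counts in all 6 libraries. The other three, Ifna4, Ifnk and Ifnz, had 1 count together in the CON libraries and 6 in the sTREM-1 libraries, and no library held more than 2 counts of any of them. Ifng, the ligand of the type II receptor, was at 0, which at a limit of 3 counts allows up to between 0.0657 and 0.0756 CPM in a library, a limit that covers counting error only. The interferon alpha genes are near-identical copies, so their reads could have been lost in the counting. Whether a gene listed at 0 was unexpressed cannot be told from these counts alone. The microglial marker Aif1 and Optn, an adaptor gene of the TBK1 list, were also at 0 in all libraries.

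Both chains of the type I receptor were well expressed, and the test called only Ifnar2. Ifnar2 codes for the chain that binds interferon with high affinity and carries JAK1. It had 59.3, 57.2 and 60.9 CPM in the CON libraries and 65.9, 65.2 and 67.5 CPM after sTREM-1, with every sTREM-1 library above every CON library. Its log2 fold change was 0.16 (SE, the standard error, 0.04, edgeR adjusted p = 0.0017), and it was called in all 13 alternative fits. Ifnar1, the chain that carries TYK2, had 114, 110.2 and 110.3 CPM in the CON libraries and 117, 115 and 120.4 CPM after sTREM-1, again without overlap. Its log2 fold change was 0.08 (SE 0.03, 95% interval from 0.01 to 0.14, edgeR adjusted p = 0.070), and it was called in 0 of the 13 alternative fits. Within single libraries, the ratio of Ifnar2 to Ifnar1 counts was 0.519, 0.519 and 0.552 in the CON group and 0.561, 0.567 and 0.561 in the sTREM-1 group, so that the ratio was higher in all sTREM-1 libraries (two-sided exact permutation p = 0.1, the smallest that 3 against 3 allow, adjusted p = 0.17 over 5 ratios).

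Both chains of the type II receptor rose. Ifngr1, the chain that binds interferon gamma, had 32.5, 32.0 and 30.4 CPM in the CON libraries and 37.8, 37.5 and 33.4 CPM after sTREM-1. The groups did not overlap, and sTREM-1 replicate 3 lay closest to the CON libraries. The log2 fold change was 0.20 (SE 0.05, edgeR adjusted p = 0.0051). Ifngr1 was called in all 13 alternative fits, and the highest adjusted p of those fits, 0.0497, was just under the threshold. Ifngr2, the chain that carries JAK2, had 100.5, 109 and 102 CPM in the CON libraries and 116, 116 and 113 CPM after sTREM-1, a log2 fold change of 0.15 (SE 0.03, edgeR adjusted p = 0.0011). The ratio of Ifngr2 to Ifngr1 counts was 3.28 ± 0.172 (SD) for CON and 3.18 ± 0.166 (SD) for sTREM-1 with n = 3 each, and the groups overlapped (two-sided exact permutation p = 0.6, adjusted p = 0.6 over 5 ratios).

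On chromosome 16, by the RefSeq gene order, the genes Ifnar2, Il10rb, Ifnar1 and Ifngr2 follow each other with no other protein-coding gene between them, and Ifnar2 and Il10rb are 567 bases apart. Il10rb, a chain shared by the receptors of interleukin-10 and of the lambda interferons, had 91.0 ± 2.38 CPM in the CON group and 96.4 ± 2.89 CPM after sTREM-1 (n = 3 each, ± SD), for a log2 fold change of 0.08 (edgeR adjusted p = 0.068). The gene that follows Ifngr2, Tmem50b, fell from 21.5 ± 0.974 to 17.8 ± 0.943 CPM (n = 3 each, ± SD), for a log2 fold change of -0.27 (edgeR adjusted p = 0.0029). The values of this row of genes thus ran from a called fall to called rises.

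In the cGAS-STING arm, the sensor gene rose and the adaptor gene did not pass the test. Mb21d1, which codes for cGAS, had 38.7, 39.0 and 36.0 CPM in the CON libraries and 44.5, 47.1 and 42.2 CPM after sTREM-1. All sTREM-1 libraries were above all CON libraries, and the log2 fold change was 0.23 (SE 0.05, edgeR adjusted p = 0.00043). Tmem173, which codes for STING, had 46.4, 46.7 and 43.4 CPM in the CON libraries and 46.9, 48.1 and 48.9 CPM after sTREM-1. Its lowest sTREM-1 library lay just above its highest CON library. The log2 fold change was 0.08, with a 95% interval from -0.02 to 0.17 (edgeR adjusted p = 0.22), and it was called in 0 of the 13 alternative fits. The ratio of Mb21d1 to Tmem173 counts was 0.833 ± 0.00276 (SD) for CON and 0.930 ± 0.0604 (SD) for sTREM-1 with n = 3 each, higher in every sTREM-1 library (two-sided exact permutation p = 0.1, adjusted p = 0.17 over 5 ratios). Mto1, a mitochondrial tRNA modification gene that starts 241 bases from Mb21d1 in the RefSeq table, had 26.8 ± 1.77 and 25.1 ± 0.799 CPM (n = 3 each, ± SD) and a log2 fold change of -0.09 (edgeR adjusted p = 0.28).

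Mavs, the adaptor of the RNA helicases, had the largest fold change and the smallest p-value of the 9 tested genes. It had 43.9, 43.1 and 45.6 CPM in the CON libraries and 55.2, 51.7 and 53.6 CPM after sTREM-1. The gap between the groups was wider than the range within either group, and the log2 fold change was 0.27 (SE 0.04, edgeR adjusted p = 1.2e-05). It ran from 0.25 to 0.30 over the 13 alternative fits and passed in each. The ratio of Mavs to Tmem173 counts was 0.974 ± 0.0682 (SD) for CON and 1.12 ± 0.0558 (SD) for sTREM-1 with n = 3 each, without overlap (two-sided exact permutation p = 0.1, adjusted p = 0.17 over 5 ratios).

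The kinase and the transcription factor at the end of the cascade gave the calls that depended most on single libraries. Tbk1 had 71.8, 71.3 and 67.7 CPM in the CON libraries and 74.4, 77.6 and 74.8 CPM after sTREM-1, with no overlap and a log2 fold change of 0.10 (SE 0.04, edgeR adjusted p = 0.033). The adjusted p was 0.19 without CON replicate 3, 0.15 without sTREM-1 replicate 2, 0.051 without sTREM-1 replicate 3 and 0.093 with upper quartile scaling. Irf3 had 32.7, 34.4 and 31.3 CPM in the CON libraries and 38.3, 34.4 and 39.3 CPM after sTREM-1. It was the only tested gene of the 9 whose groups overlapped, since sTREM-1 replicate 2 lay at the level of CON replicate 2. Its log2 fold change was 0.19 (SE 0.05, edgeR adjusted p = 0.0093), and the adjusted p was 0.072 without CON replicate 3, 0.054 without sTREM-1 replicate 1 and 0.079 without sTREM-1 replicate 3. The ratio of Irf3 to Tbk1 counts was 0.467 ± 0.0141 (SD, n = 3) and 0.494 ± 0.0448 (SD, n = 3), with overlap (two-sided exact permutation p = 0.4, adjusted p = 0.5 over 5 ratios).

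Irf3 has close neighbours on both sides, with Bcl2l12 9 bases away and Scaf1 97 bases away in the RefSeq table, and reads at these borders could be counted for either gene. Bcl2l12 had 2.95 ± 0.410 and 3.80 ± 0.471 CPM (n = 3 each, ± SD) and a log2 fold change of 0.37 (edgeR adjusted p = 0.096). Scaf1 had 63.2 ± 3.91 and 65.9 ± 1.63 CPM (n = 3 each, ± SD) and a log2 fold change of 0.06 (edgeR adjusted p = 0.33). Xpot, which lies 585 bases from Tbk1, had a log2 fold change of 0.01 (edgeR adjusted p = 0.82).

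**Figure D2:**
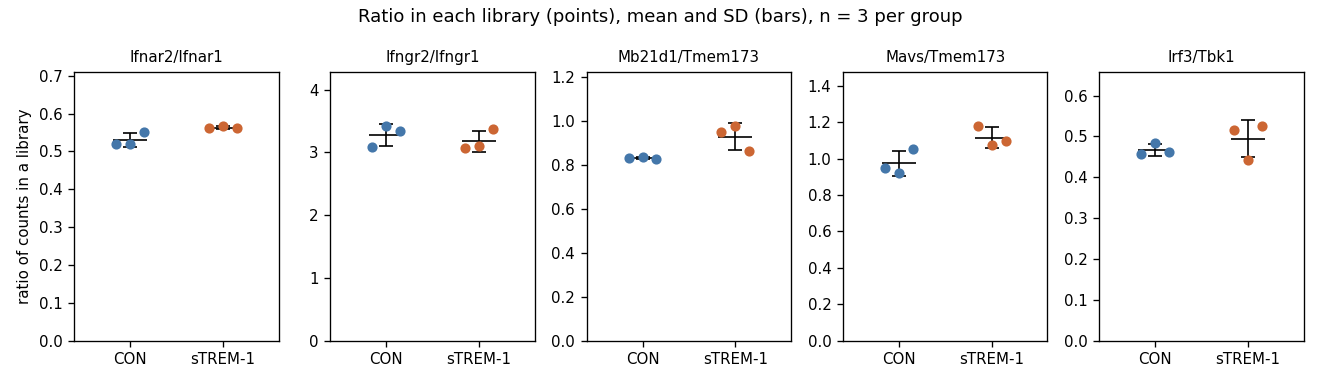
Ratio of the counts of 2 genes within each library (y axis, no unit, from 0), with the mean and SD of 3 libraries per group, for the chains of each receptor and for steps of the sensing arms. The ratios Ifnar2/Ifnar1, Mb21d1/Tmem173 and Mavs/Tmem173 are higher in all 3 sTREM-1 libraries, while Ifngr2/Ifngr1 and Irf3/Tbk1 overlap.

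Levels of different genes were compared as CPM per kilobase of exon, with exon lengths from GENCODE M21. In the CON group Ifnar1 (28.5) and Ifngr2 (28.0) were highest and their ranges overlapped. Tbk1 (23.2) came next, followed by Tmem173 (18.3) and Ifnar2 (17.8), whose ranges overlapped, and by Ifngr1 (14.98) and Mavs (14.3), whose ranges overlapped as well. Irf3 (12.8) and Mb21d1 (9.28) were lowest of the 9 tested genes, and Ifnb1 had 0.261 CPM per kilobase. After sTREM-1 the same overlapping pairs stood in the same places, with Ifngr2 (31.0) beside Ifnar1 (30.1), Ifnar2 (19.9) beside Tmem173 (19.3) and Mavs (17.3) beside Ifngr1 (17.2). Below them stood Irf3 (14.5) and Mb21d1 (10.9), and Ifnb1 had 0.303 CPM per kilobase. By this RNA measure the chain genes of a receptor were not at the same level, as Ifnar1 was above Ifnar2 and Ifngr2 above Ifngr1 in every library. The measure depends on the exon lengths used, and the levels of the receptor proteins were not measured in these libraries.

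**Figure D3:**
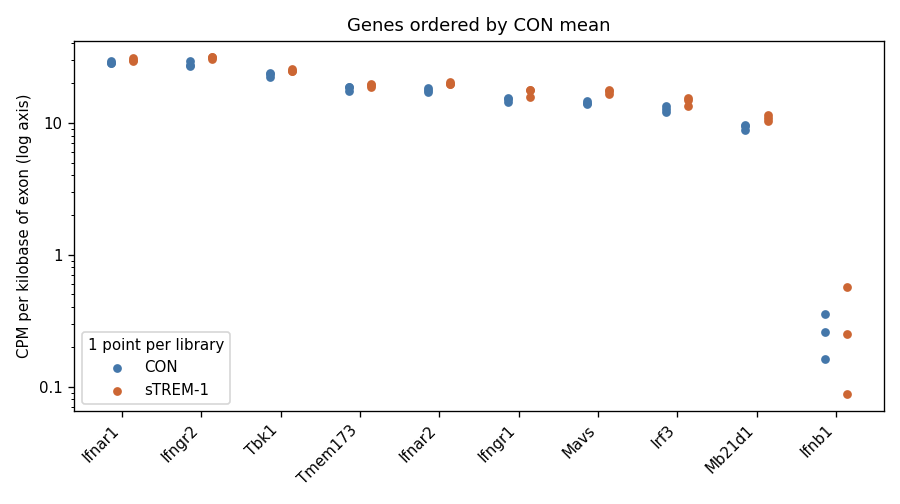
Level of the 10 genes in CPM per kilobase of exon on a log axis, with 1 point per library, ordered by the CON mean. Ifnar1 and Ifngr2 stand highest at about the same level, and Ifnb1 is far below all others in both groups.

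Of 6 genes that carry the receptor signal inside the cell, 5 rose and 0 fell, and the median log2 fold change was 0.19. Among those that rose were the kinase genes Jak1 and Tyk2 and the factor genes Stat2 and Irf9, while the kinase gene Jak2 did not pass, with a log2 fold change of -0.02 (edgeR adjusted p = 0.72). Stat2 and Tyk2 had log2 fold changes of 0.21 and 0.20, and Jak1 of 0.08, which did not pass with upper quartile scaling or without CON replicate 1. Of 9 negative regulators of the receptors, 2 were higher and 1 was lower, a share of 33.3% against 30.5% of all tested genes. Usp18, which binds IFNAR2 and displaces JAK1 from it, rose from 97.0 ± 1.92 to 139.8 ± 2.97 CPM (n = 3 each, ± SD), for a log2 fold change of 0.53, Ptpn6 rose by 0.11 on that scale, and Ptpn11 fell by 0.07, a call that was lost without any 1 of 5 libraries (all but sTREM-1 replicate 3) and without a filter on low counts. In the fit blocked on replicate number, 5 genes of this list passed, 2 of them lower (Socs3 and Ptpn11). Of 4 tested receptor chains for lambda interferons and the interleukin-10 family, 0 passed in edgeR, in DESeq2 or in edgeR's exact test. Among them 1 (Il10rb) had an unadjusted p under 0.05 in edgeR, and Ifnlr1 passed as lower without sTREM-1 replicate 1.

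**Figure D4:**
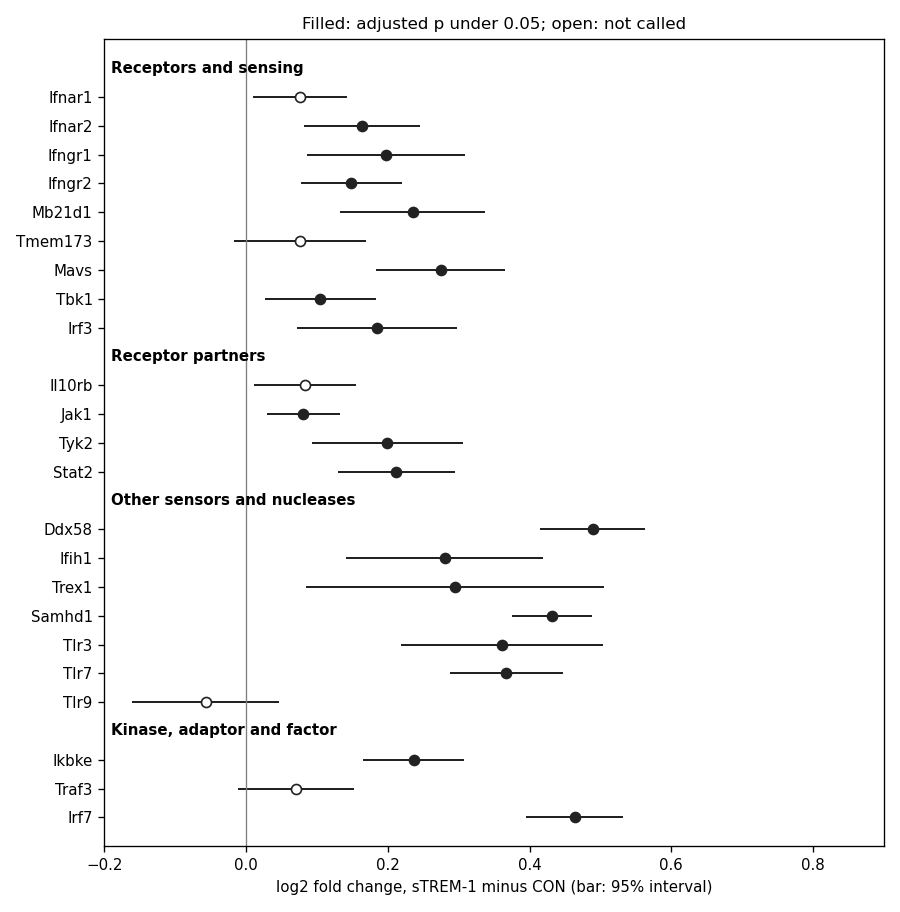
Log2 fold change of the 9 tested genes and of 14 related genes after sTREM-1, with 95% intervals from edgeR's quasi-likelihood fit. Filled points passed an adjusted p of 0.05, and Ddx58, Irf7, Samhd1, Tlr7, Tlr3, Trex1 and Ifih1 stand to the right of all 9 tested genes.

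Among other DNA-sensing genes, 8 of 23 tested were higher and 2 were lower, and the median log2 fold change was 0.05. The 2 that fell, named after their values were seen, were Lrrc8c (log2 fold change -0.37), a subunit of anion channels that pass cGAMP, and Lrrfip1 (-0.19). The highest rises were in genes of the Ifi200 family, which code for DNA-binding proteins, with log2 fold changes of 0.61 for Ifi205, 0.51 for Mndal, 0.46 for Ifi204 and 0.46 for Ifi203. These genes are close copies of each other, so their reads could have been split. Samhd1, which degrades dNTPs, rose from 189 ± 3.73 to 255 ± 6.29 CPM (n = 3 each, ± SD), for a log2 fold change of 0.43. Trex1, the nuclease that removes cytosolic DNA, rose by 0.30 with an adjusted p of 0.027 in edgeR, a call lost without CON replicate 2, CON replicate 3 or sTREM-1 replicate 1. Of 11 tested regulators of STING, 2 were higher and 1 was lower, a share of 27.3% against 30.5% of all tested genes. Besides Usp18, which stands in both lists, Insig1, a sterol sensor that also takes part in STING ubiquitination, rose by 0.38 on the log2 scale. Without sTREM-1 replicate 3, 5 genes of this list passed, 3 of them lower, among them Rhbdf2 and Usp20.

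On the RNA-sensing side, 6 of 15 tested genes were higher and 2 were lower, and the median log2 fold change was 0.07. The helicase genes upstream of Mavs were among those that rose. Ddx58 had 65.8, 69.7 and 69.5 CPM in the CON libraries and 96.1, 95.4 and 96.4 CPM after sTREM-1, a log2 fold change of 0.49 (SE 0.04, edgeR adjusted p = 3.9e-12). Dhx58, which codes for the regulatory helicase LGP2, rose by 0.65 and Ifih1 by 0.28 on the log2 scale, with groups that did not overlap. Eif2ak2, the kinase PKR, rose by 0.29 and Ddx60 by 0.33, the latter not past the threshold without CON replicate 1 or sTREM-1 replicate 2. The 2 genes that fell, named after their values were seen, were Zc3hav1, which codes for the antiviral RNA-binding protein ZAP, with a log2 fold change of -0.16, and Dhx15 with -0.15.

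Around TBK1, 7 of 15 tested genes were higher and 0 were lower (Tbkbp1 and Dtx4 lower with upper quartile scaling, and Tbkbp1 without sTREM-1 replicate 3), and the median log2 fold change was 0.07. Ikbke, the kinase closest to Tbk1, rose from 92.8 ± 2.63 to 109 ± 3.38 CPM (n = 3 each, ± SD), for a log2 fold change of 0.24 (SE 0.03, edgeR adjusted p = 2.4e-06). Tank, a scaffold of TBK1, rose by 0.16, and the chaperone genes Hsp90ab1 and Hsp90aa1 by 0.31 and 0.22 on the log2 scale. Traf3, the ubiquitin ligase between MAVS and TBK1, had a log2 fold change of 0.07 and an adjusted p of 0.19 in edgeR. Of 7 tested interferon regulatory factors other than Irf3, 4 were higher and 0 were lower. Irf7, the partner of Irf3 that is itself induced by interferon, had 111, 120.4 and 112 CPM in the CON libraries and 154, 157 and 162 CPM after sTREM-1, a log2 fold change of 0.46 (SE 0.03, edgeR adjusted p = 2.1e-12). Irf9, Irf5 and Irf8 had log2 fold changes of 0.19, 0.14 and 0.11, and Irf9 did not pass without sTREM-1 replicate 2.

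Of 12 genes of the endosomal Toll-like receptors for nucleic acids and their adaptors, 7 were higher and 1 was lower, and the median log2 fold change was 0.16. Tlr7, a sensor of single-stranded RNA, rose from 80.2 ± 4.09 to 103 ± 4.25 CPM (n = 3 each, ± SD), for a log2 fold change of 0.37, and Tlr3, Tlr13 and Tlr8 rose by 0.36, 0.32 and 0.67 on that scale. Tlr8 had a mean of 1.38 CPM in the CON group, and its call was lost in 5 of the 6 fits without 1 library, all but the one without CON replicate 1. Tlr9, the sensor of unmethylated DNA, had 33.8 ± 0.517 and 32.4 ± 0.932 CPM (SD, n = 3 each), with an adjusted p of 0.43 in edgeR. The gene that fell, Irak1, was named after its values were seen and had a log2 fold change of -0.21. Of 28 interferon-stimulated genes, 17 were higher and 2 were lower, and the median log2 fold change was 0.22. Trim30a, Oasl2 and Parp14 rose by 0.59, 0.56 and 0.49 on the log2 scale. Mx1 rose by 0.91 from a mean of 0.944 CPM, and its call was lost without CON replicate 1, CON replicate 3 or sTREM-1 replicate 2.

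Over all 11 lists together, 127 of 156 genes were tested, of which 56 were higher and 9 were lower, and the median log2 fold change was 0.11. The share that changed was 51.2%, against 30.5% of all tested genes and 7 of 9 of the receptor and sensing genes described above. By list the share ran from 0% for the lambda and interleukin-10 family receptor chains to 83.3% for the genes that carry the receptor signal. The lists and the receptor and sensing genes were chosen with earlier results of these data known. These shares depend in part on that choice, and all tested genes include genes with few counts.

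**Figure D5:**
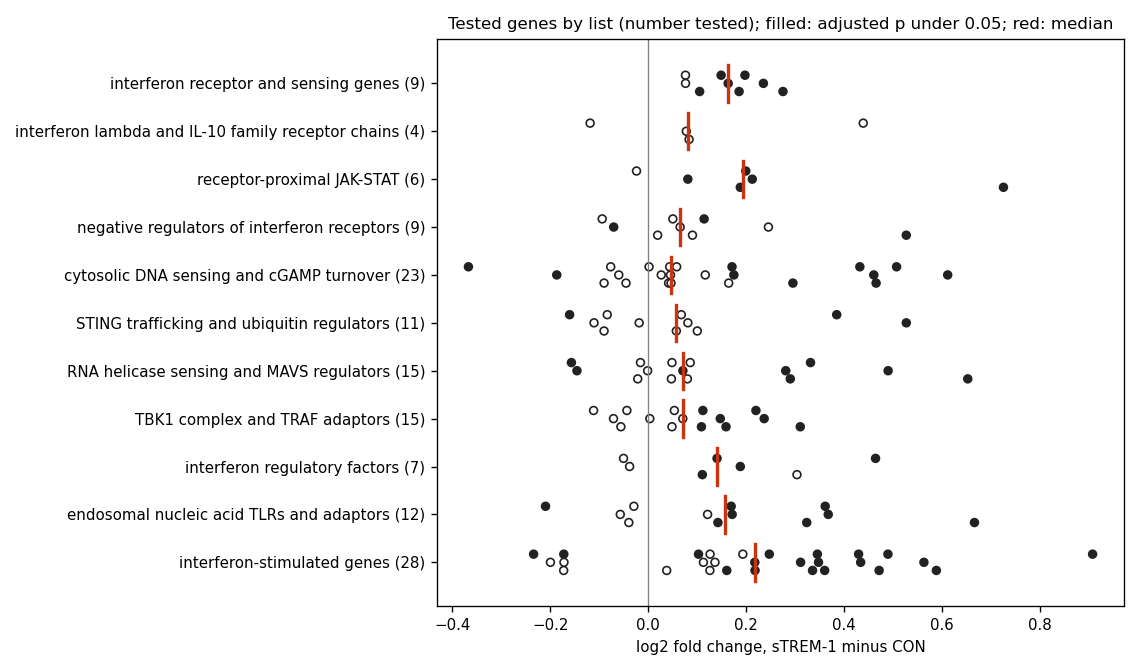
Log2 fold change of each tested gene, by list, with the number tested in brackets, filled points for an adjusted p under 0.05 and a red bar for the median. The receptor and sensing genes lie in a narrow band between 0.08 and 0.27, while points of several other lists lie on both sides of 0, passed or not.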

How the data were processed

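The libraries hold RNA of BV2 cells, 3 of the CON and 3 of the sTREM-1 group. As unit, the authors deposited raw counts of reads for each gene symbol (whole numbers). The methods of the study name FastQC, RSEM and edgeR, and the submitters' processing notes name HISAT2 2.0.4 and the human builds hg19 and GRCh38, although the symbols are those of mouse genes. The mouse build, annotation and strand setting are not given in the sources used here. Reads of overlapping genes or close copies could therefore be divided or missing, and no coordinates of counted genes are given.

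Groups and replicate numbers were taken from the titles. The 10 genes and the 11 pathway lists were chosen with earlier results of these data known. Low counts were removed by filterByExpr at a minimum count of 10, and the removed genes held 0.0408% of all counts. After TMM scaling, groups were compared by edgeR 4.0.16 (R 4.3.3) in a quasi-likelihood fit that had the group as its only term. Calls have a p-value under 0.05 after Benjamini-Hochberg adjustment. The SE is the absolute log2 fold change divided by the square root of F. Named genes are the 10 genes, per list at most 4 called genes with the largest absolute log2 fold change and a mean of at least 1 CPM, and 16 defining genes of the pathway. Other names are given as chosen after their values were seen. A few of the genes so chosen are not reported here. Ratios within libraries were compared by exact permutation. The procedure was tested on simulated data, with larger fold changes than those of the receptor and sensing genes. It was thus not tested at changes as small as theirs.

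Alternatives were scaling by RLE or upper quartile, no filter, a minimum of 10 counts per library, DESeq2 1.42.0, the exact test of edgeR, the replicate number as block, each library left out, and an adjusted p under 0.01. Promoter windows and gene order are from RefSeq on GRCm38.p6, exon lengths from GENCODE M21. With 40070633 to 45877107 counts per library, counting error is small for the 9 tested genes. It is larger for Ifnb1, which had 3 to 17 counts per library.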

Additional observations from a re-analysis of the deposited data

How the results depend on the processing

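Of the 10 receptor and sensing genes, 7 were called. The number was also 7 with RLE scaling, with no filter, with a minimum of 10 counts per library, in DESeq2, in edgeR's exact test and with the replicate block, and 6 with upper quartile scaling (without Tbk1) or at an adjusted p under 0.01. Without single libraries it ran from 5 to 7, and the genes lost were Tbk1 and Irf3. None of these settings gave a lower call among the 10 genes. Over all genes 4312 were called, 4613 with the replicate block and 3608 to 3863 without single libraries, and over the 11 lists 65, 70 with the block and 56 to 67 without single libraries. The balance of directions depended on scaling. Over all genes 1988 of the 4312 calls were lower, but 2383 of 4360 with upper quartile scaling. In the lists 9 of the 65 calls were lower, and 16 of 68 with that scaling. The deviations of same-numbered libraries correlated at -0.018, -0.033 and -0.014, which is no sign that they are pairs. With the replicate block the log2 ratios are the same by construction, as each number holds 1 library of each group (0.09 for Ifnar2/Ifnar1, -0.05 for Ifngr2/Ifngr1, 0.16 for Mb21d1/Tmem173, 0.20 for Mavs/Tmem173 and 0.08 for Irf3/Tbk1), where 3 pairs allow no exact p under 0.25. Without single libraries these ran from 0.07 to 0.12, -0.09 to -0.01, 0.12 to 0.21, 0.16 to 0.25 and 0.03 to 0.16. The cause of the lost calls of Tbk1 and Irf3 was not tested. Depth limits Ifnb1.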

Other observations

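Some interferon-stimulated genes, named here after their values were seen, lay on the other side of 0 from most of their list. Ifi27, a mitochondrial protein gene induced by type I interferon, fell from a mean of 191 ± 1.40 to one of 170 ± 5.91 CPM (n = 3 each, ± SD), which is a log2 fold change of -0.17 (edgeR quasi-likelihood adjusted p = 2.2e-05). Irgm1, an interferon-inducible GTPase gene, fell from a mean of 29.7 ± 0.909 to one of 25.2 ± 0.631 CPM (n = 3 each, ± SD), which is a log2 fold change of -0.23 (adjusted p = 0.0016). Ifit1 had a log2 fold change of -0.17 and Mx2 of -0.20, and both missed the threshold (adjusted p = 0.067 and 0.23). Cxcl10, the chemokine gene that responds strongly to both types of interferon, had 38.4 ± 1.98 and 39.4 ± 0.315 CPM (SD, n = 3 each), with groups that overlapped (adjusted p = 0.62), while Isg15 rose by 0.25 on the log2 scale (adjusted p = 0.0018).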
